A study of Rattus norvegicus with 8 samples.

Results

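The genes described here are 9 activity-induced immediate early genes, Fos, Arc, Egr1, Junb, Jun, Egr2, Nr4a1, Dusp1 and Npas4, out of 32623 genes counted in rat hippocampus. They were taken by Ensembl identifier from a list that pairs each identifier with its symbol. All 9 passed the filter on low counts, which kept 16867 genes. The hippocampal tissue came from 2 inbred rat strains at 32 weeks of age, the spontaneously hypertensive rat (SHR) and its normotensive control, the Wistar-Kyoto rat (WKY), with 4 RNA libraries per strain. The strains differ across the genome, so a difference between them is not a difference in blood pressure alone. Both strains underwent behavioural testing, and the tissue was taken on ice under sodium pentobarbital anaesthesia. The labels give no sex, no time between testing, anaesthesia and dissection, and no statement that each library is a separate animal. The p-values thus rest on the variation among the 8 libraries only, and that variation may be technical.

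Immediate early genes are transcribed within minutes of a stimulus, without new protein synthesis, when calcium and MAP kinase signals activate factors such as CREB and the serum response factor that already sit at their promoters. In the hippocampus they are widely used as markers of neurons that were recently active, for example during exploration, learning or a seizure. Most of the 9 encode transcription factors. Arc encodes a synaptic protein, and Dusp1 encodes a phosphatase that switches off MAP kinases.

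Promoter windows of 250 bases before the transcription start, from RefSeq on the GRCr8 build, were found for 6 of the 9 genes (Dusp1, Egr1, Egr2, Junb, Npas4 and Nr4a1). The counts were made on rn6, and the windows only show which known response elements lie near these genes. Egr1 and Egr2 are printed as paralogs with a shared layout, and Nr4a1 and Dusp1 as the pair with the highest correlation across libraries (below). Capitals mark matches to the CRE half-site TGACG on either strand (read as CGTCA on the reverse), to the full CRE TGACGTCA, or to the CArG box bound by serum response factor. The windows are chr18:26736828-26737077 (plus strand) for Egr1, chr20:21054442-21054691 (minus strand) for Egr2, chr7:134259888-134260137 (plus strand) for Nr4a1 and chr10:17184603-17184852 (plus strand) for Dusp1.
Egr1: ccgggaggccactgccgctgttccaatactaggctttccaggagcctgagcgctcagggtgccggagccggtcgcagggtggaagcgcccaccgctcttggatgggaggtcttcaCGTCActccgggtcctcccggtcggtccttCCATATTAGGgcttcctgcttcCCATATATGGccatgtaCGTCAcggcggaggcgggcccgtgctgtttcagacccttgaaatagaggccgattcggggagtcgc
Egr2: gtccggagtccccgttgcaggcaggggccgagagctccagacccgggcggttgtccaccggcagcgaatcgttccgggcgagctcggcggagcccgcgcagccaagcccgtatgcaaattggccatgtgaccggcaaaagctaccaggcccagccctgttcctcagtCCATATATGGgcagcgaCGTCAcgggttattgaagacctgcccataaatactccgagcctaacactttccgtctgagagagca
Nr4a1: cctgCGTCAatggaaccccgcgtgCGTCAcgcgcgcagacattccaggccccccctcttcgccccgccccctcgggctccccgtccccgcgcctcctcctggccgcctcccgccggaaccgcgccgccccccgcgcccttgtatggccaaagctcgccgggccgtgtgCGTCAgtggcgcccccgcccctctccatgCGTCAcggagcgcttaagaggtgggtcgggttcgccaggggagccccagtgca
Dusp1: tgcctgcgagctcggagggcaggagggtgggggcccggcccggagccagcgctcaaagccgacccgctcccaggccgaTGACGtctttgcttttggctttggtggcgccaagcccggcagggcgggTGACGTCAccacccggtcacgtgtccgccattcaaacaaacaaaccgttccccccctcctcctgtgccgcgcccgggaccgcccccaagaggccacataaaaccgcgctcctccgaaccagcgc

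The CRE half-site was present in 5 of the 6 windows (all but Npas4), against 18.2% of 33469 RefSeq windows of the same length. Nr4a1 held 4 copies. The full CRE, which contains the half-site on both strands, was present in Dusp1 only, 124 to 117 bases before the start, against 1.59% of all windows. The CArG box was present in Egr1 and Egr2, against 1.5% of all windows. Both genes held CCATATATGG 83 to 74 bases before the start and CGTCA 66 to 62 bases before it, and Egr1 held a further CArG box, CCATATTAGG, 105 to 96 bases before the start. Neither the AP-1 element TGANTCA (6.34% of all windows) nor the NR4A element AAAGGTCA (1.24%) was found in any of the 6. The Npas4 window holds TATATAA 149 to 143 bases before the listed start (3.42% of all windows hold it on either strand), so part of that window may be transcribed sequence, and nothing is read from its lack of a match. A match describes letters in a window and not a bound site.

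The libraries held 45048841 to 49560687 counts in SHR and 53045139 to 53699673 in WKY, with no overlap between the strains, so depth and strain cannot be told apart. Levels are given as CPM, counts per 1e6 counts of the library, after TMM scaling, which also corrects for library composition. The 9 genes had from 67 counts (Egr2, WKY replicate 4) to 9188 counts (Egr1, WKY replicate 3) in a library. WKY replicate 4 stood apart from the other WKY libraries over the whole table. A total of 6 genes differed between the strains with it and 458 without it, and it received the lowest sample quality weight of the 8 (0.467), followed by SHR replicate 3 (0.537). The strain difference, spread and correlations are therefore given with and without WKY replicate 4, a library singled out with its effect known. Neither the hippocampal origin nor the cell types in the tissue were checked against marker genes, because the files and the reference table pair 0 of the identifiers with a symbol. In bulk tissue, fewer cells of a type and less RNA per cell cannot be told apart.

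The strain comparison asked whether the activity-induced genes differed in the hypertensive strain. All 9 had a higher fitted level in SHR than in WKY, but 0 of 9 passed the test over all 8 libraries. The largest differences were in Npas4, 3.31-fold higher in SHR, Fos, 1.91-fold higher, and Egr2, 1.70-fold higher. Egr1, Jun, Nr4a1 and Dusp1 were within 1.23-fold between the strains. The median log2 fold change was 0.41 over the 9 genes and -0.0044 over all genes tested, of which 49.2% were higher in SHR. These values include WKY replicate 4. Without it, Egr1, Nr4a1 and Dusp1 were at -0.030, 0.033 and 0.030 log2 units. Fos, Arc, Junb and Egr2 were smaller but above 0, and Npas4 and Jun rose to 2.02 and 0.41. The 9 genes were measured in the same libraries and are not replicates of each other.

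The test was edgeR's quasi-likelihood test fitted to all 16867 genes, with a call at a Benjamini-Hochberg adjusted p under 0.05. It called 0.0356% of genes. At an unadjusted p under 0.05 it picked out 5 of the 9 (Fos, Npas4, Egr2, Junb and Jun), each higher in SHR, where 4.84% of all genes were higher in SHR at that level and 7.24% lower. That count was 2 without WKY replicate 2, where 3.28% of all genes were higher in SHR at that level. It was 3 without SHR replicate 2 (3.43% of all genes) or SHR replicate 3 (7.05%). With any other library left out it was 4 to 6, where 3.49 to 8.29% of all genes were higher in SHR. Limma-voom called 0 of 9 and 0.0296% of genes, with 5 of 9 higher in SHR at an unadjusted p under 0.05, as were 5.37% of all genes. DESeq2 called Fos and Npas4, in a fit that called 1.98% of genes. Limma with sample quality weights called Fos, in a fit that called 1.36% of genes. Without WKY replicate 4, edgeR called Npas4 and Jun, both higher in SHR, where 2.69% of genes were called and 1.16% were called higher in SHR. On those 7 libraries DESeq2 called Fos, Npas4 and Jun (7.14% of genes called), limma-voom called Fos and Jun (2.56%), edgeR with RLE scaling called Npas4 and Jun (2.64%), and edgeR with robust empirical Bayes called Fos and Jun (2.80%). These 4 fits were chosen after the data were seen.

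**Figure D1:**
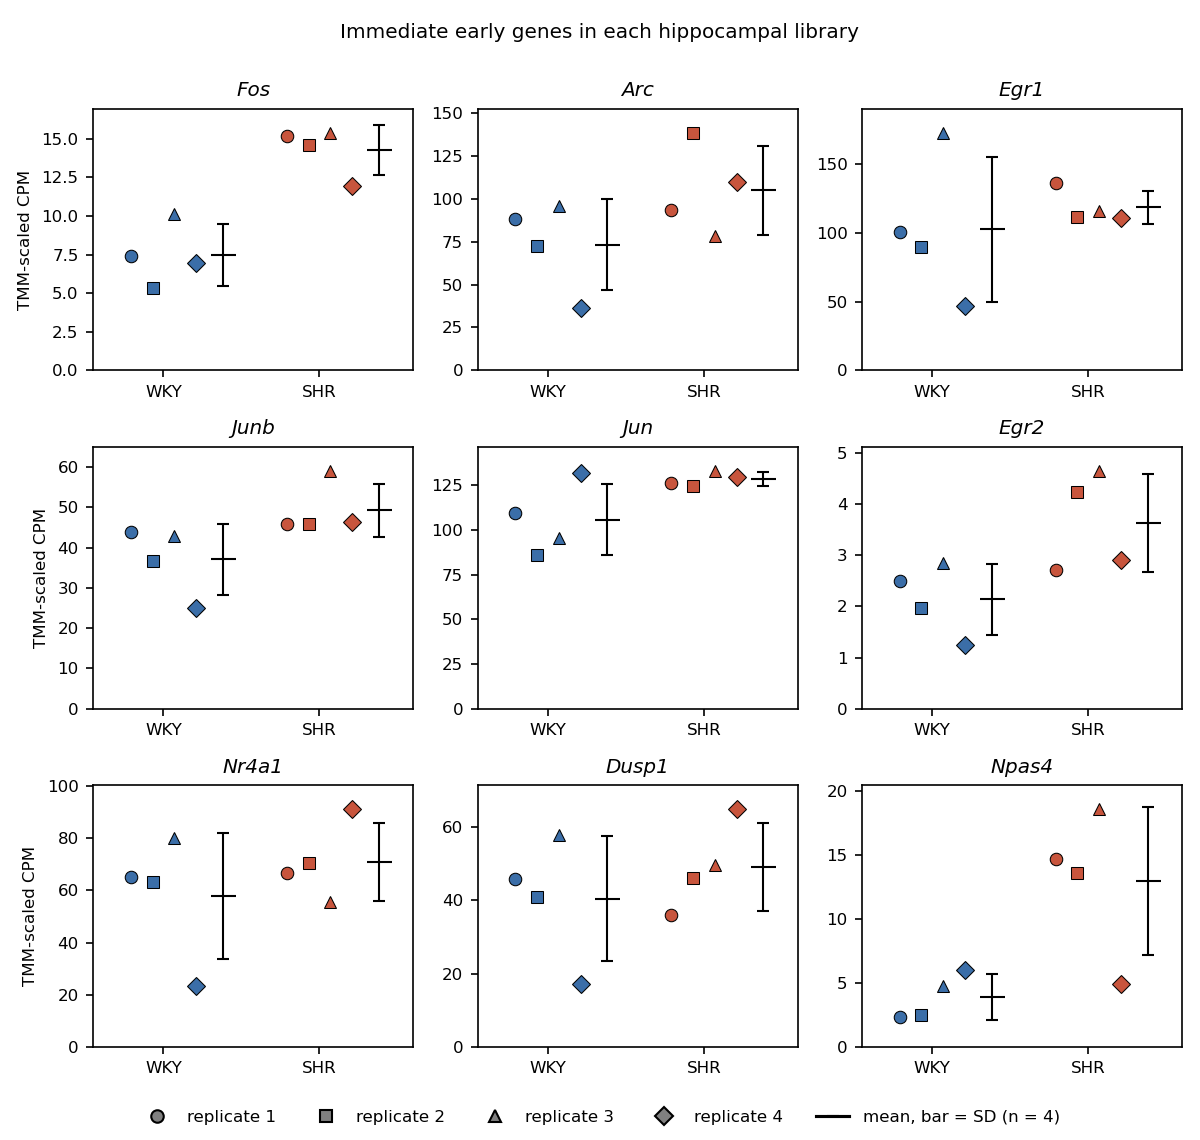
TMM-scaled CPM (y axis, from 0) of each immediate early gene in the 4 WKY and 4 SHR libraries, with 1 marker shape per replicate number and the mean and SD (n = 4) beside each group. The strains do not overlap at Fos and Junb, and WKY replicate 4 (blue diamond) is the lowest library at Arc, Egr1, Junb, Egr2, Nr4a1 and Dusp1.

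Among the AP-1 factors, Fos (ENSRNOG00000008015) encodes the partner that forms a dimer with a Jun protein and is the classic marker of recent neuronal activity. Its level was 7.41, 5.33, 10.2 and 6.98 CPM in WKY replicates 1 to 4, and 15.2, 14.6, 15.4 and 11.9 CPM in SHR replicates 1 to 4. Every SHR library lay above every WKY library. Fos averaged 14.3 CPM (SD 1.61, n = 4) in SHR against 7.47 CPM (SD 2.01, n = 4) in WKY. On the log2 scale SHR was higher by 0.94 ± 0.19 (SE), with an unadjusted p of 0.000519 and an adjusted p of 0.144 by edgeR. Fos ranked 61 of 16867 genes by p-value. Without WKY replicate 4, which lay within the other WKY libraries here, the difference was 0.90 ± 0.21 with an adjusted p of 0.0503 (edgeR). Over 20 alternatives it stayed between 0.807 and 1.12 and passed the test in 5.

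Junb (ENSRNOG00000042838) encodes a Jun family partner in AP-1. It was at 43.9, 36.6, 42.9 and 24.9 CPM in WKY replicates 1 to 4, and at 45.8, 45.8, 59.1 and 46.3 CPM in SHR replicates 1 to 4. The strains did not overlap, although the highest WKY library lay close under the lowest SHR library, and SHR replicate 3 stood above the other SHR libraries. SHR was higher by 0.41 ± 0.17 log2 units (SE), with an adjusted p of 0.380 by edgeR. Leaving out WKY replicate 4 gave 0.26 ± 0.12 with an adjusted p of 0.298, and the strains still did not overlap. Fos and Junb were the 2 of 9 genes whose strains did not overlap over all 8 libraries, a pattern shown by 6.72% of all genes tested and, with SHR higher, by 2.88%.

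Jun (ENSRNOG00000026293) encodes the founding Jun protein, which is also present in resting neurons. It was at 110, 85.9, 95.3 and 132 CPM in WKY replicates 1 to 4, while the SHR libraries were at 126, 125, 133 and 130 CPM. The SHR libraries were nearly equal, with a coefficient of variation of 2.96%, and WKY replicate 4 lay among them. Only 2.86% of the 12829 genes with at least the mean level of the lowest of the 9 (Egr2) had an SD of log2 CPM in SHR as small as that of Jun. Over 8 libraries Jun was higher in SHR by 0.28 ± 0.12 log2 units (SE), with an adjusted p of 0.386 by edgeR. Without WKY replicate 4 the strains did not overlap, and the difference of 0.41 ± 0.09, a 1.32-fold higher level in SHR, passed the test with an adjusted p of 0.0490 (edgeR). In the alternatives that kept WKY replicate 4, Jun did not pass, with adjusted p-values from 0.0927 to 0.717.

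Npas4 (ENSRNOG00000020009) encodes a neuronal bHLH-PAS factor that responds to calcium entry and controls inhibitory synapses. It was at 2.34, 2.49, 4.75 and 6.02 CPM in WKY replicates 1 to 4, and at 14.7, 13.6, 18.6 and 4.89 CPM in SHR replicates 1 to 4. SHR replicates 1 to 3 were more than 2-fold above every WKY library, while SHR replicate 4 lay within the WKY range. It had the widest spread of the 9, with 7.95-fold between its highest and lowest library. Npas4 averaged 12.9 CPM (SD 5.78, n = 4) in SHR against 3.90 CPM (SD 1.79, n = 4) in WKY. The difference was 1.73 ± 0.42 log2 units (SE), with an unadjusted p of 0.00192 and an adjusted p of 0.206 by edgeR. Without WKY replicate 4, the highest WKY library, the difference of 2.02 ± 0.43, a 4.05-fold higher level in SHR, passed the test with an adjusted p of 0.0392 (edgeR). Without SHR replicate 4 it was 2.001 with an adjusted p of 0.281, although all 3 remaining SHR libraries then lay above the WKY libraries. Without WKY replicate 4, 4 of the 9 genes (Fos, Junb, Jun and Npas4) had no overlap between the strains, as had 17.2% of all genes, 8.12% with SHR higher. The Npas4 difference stayed between 1.52 and 2.02 over 20 alternatives and passed the test in 4.

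The Egr genes encode zinc-finger factors of the same family that bind GC-rich promoter elements. Egr2 (ENSRNOG00000000640) had the fewest counts, at 2.49, 1.96, 2.86 and 1.25 CPM in WKY replicates 1 to 4 and 2.71, 4.24, 4.66 and 2.92 CPM in SHR replicates 1 to 4. The strains overlapped only where SHR replicate 1 lay under WKY replicate 3. Its level was higher in SHR by 0.76 ± 0.29 log2 units (SE), with an adjusted p of 0.332 by edgeR, and by 0.58 ± 0.25 without WKY replicate 4, with an adjusted p of 0.275.

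Egr1 (ENSRNOG00000019422), needed for lasting forms of hippocampal plasticity, was at 101, 89.6, 173 and 46.4 CPM in WKY replicates 1 to 4. The SHR libraries were at 136, 111, 116 and 110 CPM. WKY held both the highest and the lowest library, and its coefficient of variation was 51.2%, against 10.2% in SHR. The strain difference was 0.21 ± 0.30 log2 units (SE) with an approximate 95% interval from -0.46 to 0.88 and an adjusted p of 0.829 by edgeR. It turned to -0.030 ± 0.20 without WKY replicate 4 (adjusted p = 0.964) and was 0.59 without WKY replicate 3 (adjusted p = 0.408), so its sign and size depended on these 2 libraries. It was 0.14 without SHR replicate 1.

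Nr4a1 (ENSRNOG00000007607) encodes an orphan nuclear receptor of the Nur77 family. It was at 65.1, 63.0, 80.2 and 23.3 CPM in WKY replicates 1 to 4, and at 66.6, 70.7, 55.6 and 91.2 CPM in SHR replicates 1 to 4. WKY replicates 1 to 3 lay inside the SHR range, and WKY replicate 4 lay below all other libraries. The difference between the strains was 0.30 ± 0.31 log2 units (SE) over 8 libraries, with an approximate 95% interval from -0.39 to 0.98 and an adjusted p of 0.748 by edgeR. The difference was 0.033 ± 0.16 without WKY replicate 4, with an adjusted p of 0.947. It was 0.50 without WKY replicate 3 and 0.15 without SHR replicate 4.

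Dusp1 (ENSRNOG00000003977) encodes a nuclear phosphatase that inactivates MAP kinases and so limits the signal that induces these genes. It was at 45.8, 41.0, 57.9 and 17.2 CPM in WKY replicates 1 to 4, and at 36.1, 46.2, 49.6 and 65.0 CPM in SHR replicates 1 to 4. As at Nr4a1, WKY replicate 4 alone lay below the SHR range. SHR minus WKY came to 0.28 ± 0.31 log2 units (SE) over 8 libraries, with an approximate 95% interval from -0.40 to 0.97 and an adjusted p of 0.763 by edgeR. Leaving out WKY replicate 4 brought it to 0.030 ± 0.19, with an adjusted p of 0.962. Leaving out WKY replicate 3 gave 0.51, and leaving out SHR replicate 4 gave 0.12.

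Arc (ENSRNOG00000043465) encodes a protein that is made at active synapses and promotes the removal of AMPA receptors. It was at 88.4, 72.4, 95.8 and 36.6 CPM in WKY replicates 1 to 4, and at 93.2, 139, 78.0 and 110 CPM in SHR replicates 1 to 4. The ranges overlapped, and again WKY replicate 4 was the lowest library. Arc was higher in SHR by 0.52 ± 0.27 log2 units (SE), with an adjusted p of 0.486 by edgeR, and by 0.29 ± 0.18 without WKY replicate 4, with an adjusted p of 0.443.

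**Figure D2:**
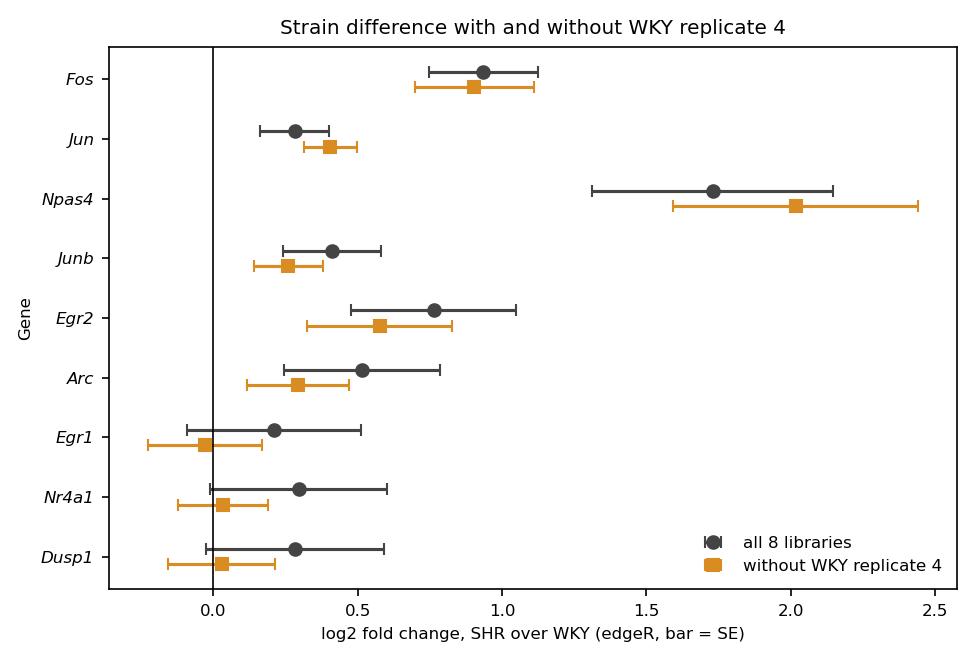
Log2 fold change of SHR over WKY (x axis; point and SE from edgeR) for each gene, over all 8 libraries (circles) and without WKY replicate 4 (squares). Leaving the library out moves Npas4 and Jun to the right and Egr1, Nr4a1 and Dusp1 to values between -0.030 and 0.033.

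WKY replicate 4 divided the 9 genes. It was the lowest of the 8 libraries at 6 of them (Arc, Egr1, Junb, Egr2, Nr4a1 and Dusp1), where it was the lowest at 12.1% of all genes tested. Nr4a1 was 2.98-fold, Dusp1 2.80-fold, Egr1 2.61-fold and Arc 2.34-fold below the mean CPM of WKY replicates 1 to 3. Egr2 was 1.95-fold and Junb 1.65-fold below it. Fos was 1.095-fold below it, while Npas4 and Jun were higher in this library, by 1.89-fold and 1.36-fold. At 4 of the 9 genes WKY replicate 4 lay at least 1 log2 unit below the other WKY libraries, against 1.19% of the 12829 genes with at least the mean level of Egr2. The genes did not all lie on the same side of the other WKY libraries, and no test applies to a single library. The part that whatever set this library apart over the whole table played in its low values was not tested.

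In SHR, no library was the lowest at any of the 9. SHR replicate 3 was the highest at 5 (Fos, Junb, Jun, Egr2 and Npas4), where it was the highest at 16.4% of all genes tested. Without it, the log2 fold change (edgeR) was 0.91 at Fos, 0.32 at Junb, 0.28 at Jun, 0.63 at Egr2 and 1.52 at Npas4. Each stayed above 0, and 0 of 9 genes were called (0.0352% of all genes). A drop from the value over 8 libraries is built into this choice of genes. SHR replicate 4 was the highest at Nr4a1 and Dusp1 and, within SHR, the lowest at Fos, Egr1 and Npas4. SHR replicate 2 was the highest at Arc. The same SHR library could therefore be high for some of the genes and low for others.

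**Figure D3:**
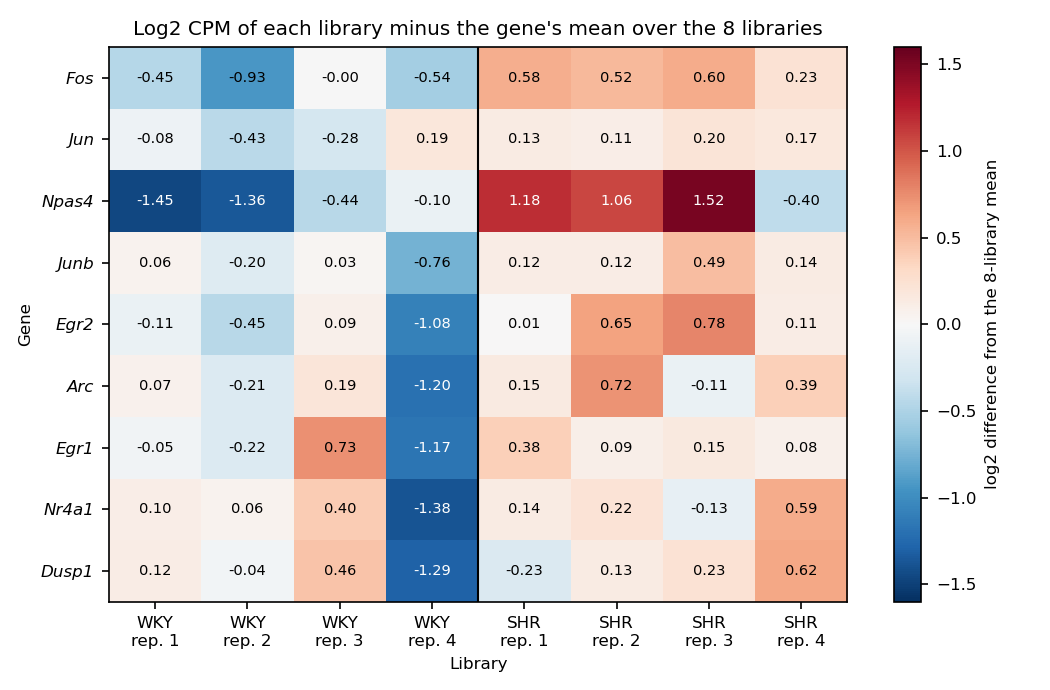
Log2 CPM of each library (columns) minus the mean of the gene over the 8 libraries, for the 9 genes (rows), in red above and blue below the mean. Nr4a1 reaches -1.38 and Dusp1 -1.29 in WKY replicate 4, where Npas4 is at -0.10 and Jun at 0.19.

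The 9 genes varied more between libraries than most genes. The SD of log2 CPM over the 8 libraries had a median of 0.58 over the 9, against 0.18 over the 12829 genes with at least the mean level of Egr2. Npas4, at 1.14, had the largest SD of the 9, and 99.4% of those genes had an SD as small or smaller. Within WKY the median SD was 0.63 for the 9 and 0.16 for the background, and within SHR 0.30 and 0.16. The WKY spread rested in part on WKY replicate 4. Over WKY replicates 1 to 3 the median SD was 0.25 for the 9 and 0.13 for the background. Over these libraries the SD ran from 0.14 (Junb) to 0.56 (Npas4). At Fos, leaving out WKY replicate 4 raised the SD within WKY to 0.46. Over the 7 libraries the median SD was 0.31 for the 9 and 0.18 for the background. Jun had the smallest SD over 8 libraries, at 0.24. Fos, in contrast, differed mainly between the strains, with an SD of 0.17 within SHR and 0.38 within WKY.

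Pairwise correlations of log2 CPM over the 8 libraries were computed for the 36 pairs of genes, with exact permutation tests adjusted over the pairs. Of the 36, 30 were positive, with a median Pearson r of 0.67. The median r was 0.32 without WKY replicate 4 (32 of 36 positive) and 0.43 with each gene centred on its strain mean. Only Junb and Egr2 passed the adjusted threshold (r = 0.93, exact permutation p = 0.000868, adjusted p = 0.0313; Spearman rho = 0.90, exact permutation p = 0.00456, adjusted p = 0.0821). Their r was 0.74 without WKY replicate 4 and SHR replicate 3, the libraries farthest from the median of Junb, and 0.85 without WKY replicate 4 alone. At that number of libraries, the relation no longer passed (exact permutation p = 0.160 and 0.0141, the latter adjusted to 0.127).

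Nr4a1 and Dusp1 had the highest r of the 36 (0.94, exact permutation p = 0.00598, adjusted p = 0.105; Spearman rho = 0.69, exact permutation p = 0.0694, adjusted p = 0.278). Without WKY replicate 4 and SHR replicate 4, the libraries farthest from the median of Nr4a1, r was 0.36 (exact permutation p = 0.482). Leaving out the farthest libraries narrows the range of Nr4a1, which can itself lower r. Without WKY replicate 4 alone, r was 0.67 (exact permutation p = 0.0907, adjusted p = 0.297). Arc and Nr4a1 had an r of 0.91 (exact permutation p = 0.0117, adjusted p = 0.105; Spearman rho = 0.90, exact permutation p = 0.00456, adjusted p = 0.0821), and 0.87 without WKY replicate 4 and SHR replicate 2 (exact permutation p = 0.0292). Without WKY replicate 4 alone, the r of Arc and Nr4a1 was 0.58 (exact permutation p = 0.167, adjusted p = 0.5). Fos and Npas4 had an r of 0.86 (exact permutation p = 0.00930, adjusted p = 0.105; Spearman rho = 0.81, exact permutation p = 0.0218, adjusted p = 0.157), and 0.96 without WKY replicates 2 and 4 (exact permutation p = 0.00139). With each gene centred on its strain mean, Fos and Npas4 had an r of 0.59 (exact permutation within strains, p = 0.115).

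The sign of a correlation could depend on WKY replicate 4. Among the 6 genes lowest in that library, a group that this choice makes alike, the 15 pairs had a median r of 0.79, and 0.24 without it. Junb and Nr4a1 went from 0.74 to -0.28. In the other direction, Jun and Junb went from 0.14 to 0.81 without it. Over the 7 remaining libraries 0 of the 36 pairs passed the adjusted threshold. With values centred on the strain means, r was 0.88 for Junb and Egr2, 0.93 for Nr4a1 and Dusp1 and 0.91 for Arc and Nr4a1. These centred values keep WKY replicate 4. Without that library and uncentred, r for the same pairs was 0.85, 0.67 and 0.58. Permuting within strains cannot bring a single pair below an adjusted p of 0.0625, so no call was made from the centred values. Relations within a strain were not computed separately, since each strain has only 4 libraries.

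**Figure D4:**
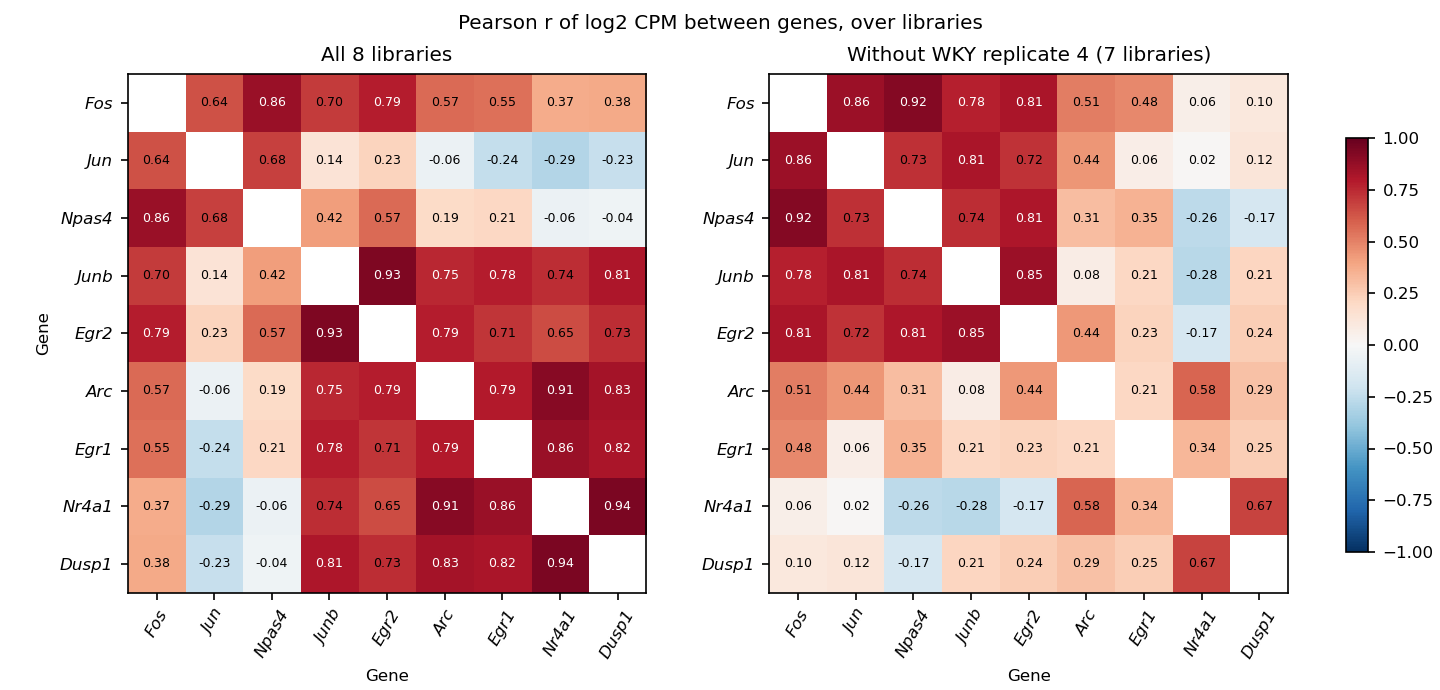
Pearson r of log2 CPM between each pair of genes over all 8 libraries (left) and without WKY replicate 4 (right), on a colour scale from -1 (blue) to 1 (red). Nr4a1 and Dusp1 go from 0.94 to 0.67, and Jun and Junb from 0.14 to 0.81.

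Some of the 9 were also near each other among all genes. Of the 13472 other genes whose log2 CPM averaged 1 or more, Junb ranked 2 by likeness (Pearson r over the 8 libraries) to Egr2, and Egr2 ranked 4 by likeness to Junb. Nr4a1 ranked 8 by likeness to Dusp1, and Dusp1 ranked 13 by likeness to Nr4a1. When WKY replicate 4 was left out, Junb ranked 137 by likeness to Egr2 and Egr2 ranked 267 by likeness to Junb, while Nr4a1 ranked 509 by likeness to Dusp1 and Dusp1 ranked 951 by likeness to Nr4a1. These ranks are descriptions and carry no p-value.

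The mean standardised log2 CPM of the 9 genes was -1.44 in WKY replicate 4, -0.22, -0.74 and 0.20 in WKY replicates 1 to 3, and 0.41 to 0.68 in the SHR libraries. Standardised again without WKY replicate 4, the strains overlapped, with WKY replicate 3 at 0.18 and SHR replicate 1 at 0.12. Of 13464 other genes, the profile most like that over the 8 libraries was that of ENSRNOG00000008030 (r = 0.97), at 40.9 to 51.3 CPM in WKY and 51.5 to 56.0 CPM in SHR. The most opposed profile was that of ENSRNOG00000023162 (r = -0.98), at 33.1 CPM in WKY replicate 4, 14.2 to 23.7 CPM in the other WKY libraries and 7.003 to 8.91 CPM in SHR. These genes are known here by identifier only, their r without WKY replicate 4 was 0.98 and -0.91, and neither passed the strain test (edgeR, adjusted p = 0.346 and 0.126).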

How the data were processed

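The deposited values are raw counts per gene, whole numbers in a matrix of the 8 libraries and in 8 single-library tables, all 8 of which equal the matrix. The submitters' processing notes name HISAT2 2.0.4, StringTie 1.3.4d, cutadapt 1.9 and the rn6 build. Not given in the sources used here are the settings, annotation release, strandedness and filters. Overlapping genes and gene copies were not checked.

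Strain and replicate number came from the sample titles. The headers of the single-library tables number replicates 3 and 4 differently, as 5 and 6 in WKY and as 4 and 6 in SHR. The counts were tested with edgeR 4.0.16 in R 4.3.3 (quasi-likelihood, TMM, default filterByExpr, strain alone in the model, two-sided, Benjamini-Hochberg adjustment). SE was |log2 fold change| over the square root of F. Log2 CPM used a prior count of 2. Correlations were tested exactly over 40320 orders, two-sided. Alternatives used DESeq2 1.42.0 and limma 3.58.1, other scaling and filters, robust empirical Bayes, a replicate block and each library left out. The edgeR, DESeq2 and limma-voom fits were also run on simulated counts. No outlying library was simulated, so that run says nothing of one like WKY replicate 4. Libraries of a strain differed beyond sampling noise (chi-square per degree of freedom 15.5 or more), so none was treated as a duplicate.

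The genes, lists and tests were chosen with earlier results of these data known. All 9 genes were named, and genes of like profile by their correlation, at most 2 identifiers in each direction. Wider lists of activity-induced genes, upstream regulators and cell type markers were not analysed here, because 0 of 32623 identifiers matched the GRCr8 RefSeq table. Levels were not compared between genes, since no lengths on rn6 were used here.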

Additional observations from a re-analysis of the deposited data

Results flagged for a closer look

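Of the 18 sets of 4 libraries (9 genes in 2 strains) searched for 1 library lying far from the other 3, 1 was picked out, where chance picks about 1 in 20. Junb in SHR replicate 3, at 59.1 CPM, lay above the other SHR libraries at 45.8 to 46.3 CPM, and the gap took up 0.963 of the range of the 4. The low values of WKY replicate 4 at Nr4a1, Dusp1, Egr1 and Arc were not picked out by this screen, because the other WKY libraries were themselves spread.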

How the results depend on the processing

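Fits with both WKY replicate 4 left out and another setting changed were added after the data were examined. So were the correlations, spread and likeness values without that library alone. Over 8 libraries 0 of the 9 genes were called. DESeq2 called 2 and sample quality weights 1, while leaving out each library gave 0 to 2, with 2 only without WKY replicate 4. On the remaining 7 libraries, DESeq2 called 3 (Fos, Npas4 and Jun), limma-voom 2, RLE scaling 2 and robust empirical Bayes 2. Of all genes, 6 were called over 8 libraries, against 3 with no low-count filter, 334 with DESeq2, 230 with sample quality weights, and 1 to 458 without a library. On the 7 libraries, DESeq2 called 1216 genes, limma-voom 436, RLE scaling 449 and robust empirical Bayes 477. Genes of the 9 whose strains did not overlap numbered 2, and 2 to 4 without a library, with 4 without WKY replicate 3 or 4, where 9.98% and 17.2% of all genes had no overlap (8.20 to 13.5% without another library). Of the 36 pairs 1 passed, against 0 without the 2 farthest libraries, 0 with strain-centred values and 0 on the 7 libraries. The smallest adjusted p that a single pair can reach is 0.05 with 6 libraries and 0.0625 with centring. A pair on its own thus could not pass under those 2 settings, and the zeros alone are no measure of stability. Junb and Egr2 had exact permutation p-values of 0.160 with 6 libraries and 0.0156 with centring. The smallest possible were 0.00139 and 0.00174.

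The log2 fold change was above 0 in all 20 alternatives for each gene except Egr1. Egr1 ranged from -0.030 (without WKY replicate 4) to 0.59 (without WKY replicate 3) when a library was left out. On the 7 libraries Egr1 was at -0.027 with DESeq2, -0.027 with RLE scaling and -0.030 with robust empirical Bayes, but at 0.026 with limma-voom. The cause of these changes was not tested. The numbers in the titles gave no sign of pairing, as deviations from the strain means of same-numbered libraries correlated at -0.157 to -0.0034. Such correlations cannot show whether same-numbered libraries were handled together. With the replicate block 1 gene was called and 0 of the 9. The wider gene lists could not be run, as no identifiers matched. Depth limited Egr2 most, at 67 to 238 counts.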
